A study of Mus musculus with 26 samples.

Results

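ILC2s of CC030 mice were compared after 2 days of culture with AR420626 or with its vehicle. The comparison rests on 10 of the 26 libraries of the series, 5 of cells given AR420626 (10 µM) and 5 of cells given DMSO vehicle, chosen by their labels as the day 2 libraries of the culture experiment. ILC2s were sorted from the lungs of 5 wild-type female CC030/GeniUnc mice, and the cells of each mouse were divided between vehicle and AR420626, so that every library has a partner of the same mouse number. All cultures, vehicle included, held the cytokines IL-33 and TSLP at 10 ng/mL each and human IL-2 at 100 U/mL, so that both groups are cytokine-activated cells. Sorting had taken lineage-negative cells with CD90, CD127 and ST2, and the mice were unchallenged. The day 6 cultures of the same mice, 5 vehicle and 5 AR420626 libraries, were set beside the day 2 values, and sorted cells of 3 naïve C57BL/6J mice served only to check gene positions. Each library is a well of cultured cells, so fewer cells and less RNA per cell cannot be told apart.

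Group 2 innate lymphoid cells (ILC2s) are tissue-resident lymphocytes without an antigen receptor that release IL-5 and IL-13 when the epithelial cytokines IL-33 and TSLP reach them. FFAR3 is a G-protein-coupled receptor for short-chain fatty acids, the acids that gut microbes make from fibre, and signals through inhibitory G proteins. AR420626 is an agonist of FFAR3. The comparison asks which transcripts had changed early in culture, before the day 6 state of the same cells was reached.

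The treatments were separated without overlap by the share of the 2 ribosomal RNAs that the mitochondrial genome encodes, mt-Rnr1 and mt-Rnr2, which form the RNA core of the mitochondrial ribosome. In the vehicle libraries of mice 1 to 5 they made up 13.8%, 56.4%, 21.0%, 37.1% and 55.6% of all counts in genes. In the AR420626 libraries of the same mice they made up 9.06%, 10.0%, 13.2%, 1.49% and 2.39%. Every AR420626 library lay below every vehicle library, at 7.24% ± 5.08 (SD, n = 5) against 36.8% ± 19.5 (SD, n = 5). The difference was -29.5 percentage points and was in the same direction in 5 of 5 pairs (exact two-sided permutation test of the signs of 5 paired differences, p = 0.0625, the smallest that 5 pairs allow). The test cannot pass 0.05 with 5 pairs, so this is a difference without overlap and not a call. Counts in nuclear genes, a measure of library quality, were also lower with AR420626 in 5 of 5 pairs (mean log2 ratio -0.73, exact permutation test, p = 0.0625). The share of reads assigned to genes was lower in 5 of 5 pairs, with a mean difference of -2.18 percentage points (SD of the pairs 2.77, exact permutation test, p = 0.0625). The pairs were unlike in size, from 11.1% in vehicle to 4.09% with AR420626 in mouse 5 and from 2.79% to 2.52% in mouse 3. That share counts mt-Rnr1 and mt-Rnr2 themselves, so it is not a separate measure. The part of library quality in the difference was not tested.

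Both genes are neighbours on the mitochondrial genome with a tRNA gene between them, mt-Rnr1 at chrM:70-1024 and mt-Rnr2 at chrM:1094-2675 (GRCm38, plus strand), and neither codes for protein. A stretch of each is shown because these RNAs make up the share that separated the treatments at day 2. The library kit begins cDNA with an oligo-dT primer, which pairs with runs of A. Whether such priming bears on the difference was not tested. The capitals mark the run of A at the centre of the stretch, which no other run in the RNA exceeds, though mt-Rnr1 has another as long earlier in the stretch, and the bases are from the GENCODE vM21 transcripts.
mt-Rnr1, bases 631 to 730: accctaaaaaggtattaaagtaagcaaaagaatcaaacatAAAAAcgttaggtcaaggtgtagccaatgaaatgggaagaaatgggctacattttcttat
mt-Rnr2, bases 355 to 454: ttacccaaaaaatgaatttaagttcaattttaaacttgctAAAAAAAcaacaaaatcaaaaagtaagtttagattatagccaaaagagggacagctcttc
The longest run in mt-Rnr1 is 5 A in 955 bases, of which 37.8% are A. The longest in mt-Rnr2 is 7 A in 1582 bases, of which 38.2% are A. mt-Rnr2 has 4 runs of at least 6 A and mt-Rnr1 has 0.

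**Figure D1:**
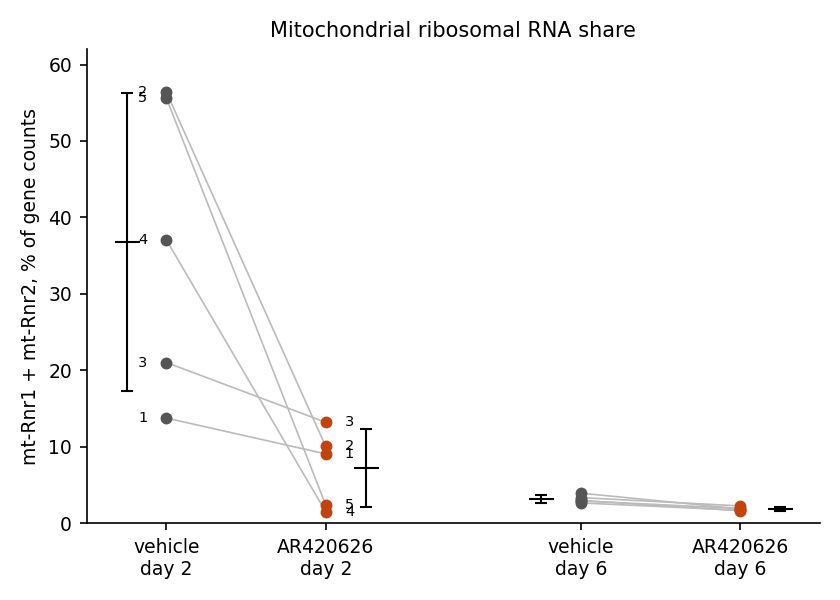
Share of mt-Rnr1 and mt-Rnr2 in all counts in genes (%, linear axis) in each library, with lines joining the cells of one mouse, mouse numbers beside the day 2 points, and black bars for the mean ± SD of 5 libraries. At day 2 the vehicle libraries lie between 13.8% and 56.4% and the AR420626 libraries between 1.49% and 13.2%, and at day 6 they lie between 2.65% and 3.93% and between 1.63% and 2.26%.

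Levels of other genes are given here as nuclear CPM, that is CPM computed over the counts in genes outside the mitochondrial genome, so that the mitochondrial share does not move them. On that scale mt-Rnr1 was at 51422, 349898, 46084, 130699 and 518636 in vehicle mice 1 to 5 and at 27217, 19188, 26226, 6910 and 10571 with AR420626. Its groups did not overlap, as in the 0.105% of 20865 genes tested that had all AR420626 libraries below. mt-Rnr2 was at 111319 to 948508 in vehicle and 8398 to 126186 with AR420626, with 1 overlap, since AR420626 mouse 3 was above vehicle mouse 1. The fitted log2 fold changes, AR420626 over vehicle, were -3.47 (standard error 2.6) for mt-Rnr1 and -3.56 (standard error 2.85) for mt-Rnr2, and neither passed in edgeR. DESeq2 called mt-Rnr1 (log2 fold change -3.45, adjusted p = 0.0101 from DESeq2).

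Messenger RNAs of the same genome did not move in one direction. Their sum was 20418, 3478, 2121, 4586 and 2737 nuclear CPM in vehicle and 1959, 2228, 2360, 9691 and 19960 with AR420626, lower in 2 of 5 pairs (exact permutation test, p = 1). Vehicle mouse 1 and AR420626 mice 4 and 5 were high, and the other 7 libraries were between 1959 and 4586. Of the 13 mitochondrial genes for respiratory chain proteins, 9 were tested and none passed. mt-Cytb, a subunit of complex III, was at 613 to 6887 nuclear CPM in vehicle and 371 to 5288 with AR420626. mt-Co3, a subunit of cytochrome oxidase, was at 6.68 to 306 in vehicle and 1.23 to 323 with AR420626.

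At day 6 the ribosomal RNA share was 2.65% to 3.93% in vehicle and 1.63% to 2.26% with AR420626, again without overlap. In nuclear CPM, 6.6% of the genes tested at day 6 had all AR420626 libraries below. mt-Rnr2 was lower with AR420626 at day 6 by a log2 fold change of -0.95 (adjusted p = 0.0173 from edgeR) and mt-Rnr1 by -0.77 (adjusted p = 0.0543 from edgeR), where 8.14% of 9421 genes tested were called lower and 3.3% higher. The difference between the days was not called for either (adjusted p = 0.994 from edgeR for both).

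The libraries of day 2 were of unlike quality, and this touches every day 2 result, the ribosomal RNA share included. Counts in genes, mt-Rnr1 and mt-Rnr2 included, were 1139210 to 5320028 in vehicle and 227445 to 1171015 with AR420626. They were lower with AR420626 in 5 of 5 pairs (exact permutation test, p = 0.0625). Between 2.06% and 4.56% of reads or alignments were assigned to genes, but 11.1% in vehicle mouse 5, and 74.5% to 82.6% fell outside annotated genes. AR420626 mouse 4 was the shallowest and had counts at 19356 genes, against 27775 to 44975 in the other 9. Over the 500 most variable genes, the leading component of the 10 libraries held 73.4% of the variance. Vehicle mouse 5 (93.7), AR420626 mouse 5 (62.4), AR420626 mouse 4 (26.6) and vehicle mouse 1 (14.7) lay toward 1 end. The other 6 lay at -37.9 to -22.9, and they are the libraries that chromosome 16 sets apart below.

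Symbols and reads did not match everywhere. The authors aligned CC030 reads to an mm9-based pseudogenome and moved them to mm10 coordinates. To see where a symbol stands for its own gene, levels of protein-coding genes in vehicle at day 6 were set against naïve C57BL/6J. Across genes within a chromosome, which are not independent replicates, Spearman's rho was 0.821 on chromosome 16 (664 genes) and 0.962 on the mitochondrial genome (13 genes), but -0.00815 to 0.434 on the other 20 chromosomes. In windows of 4 Mb, 13 of 15 on chromosome 16 and 28 of 442 elsewhere reached 0.6. Many transcripts that any leukocyte uses were nearly missing elsewhere. Of 25, the genes Ftl1, Myl6, Ptma and Tmsb4x had 0 counts in all 10 day 2 libraries, and Actb, beta-actin, had 4 to 48 counts against 4897 CPM in naïve C57BL/6J. Others of the 25 did have counts in some libraries, such as Cfl1, cofilin, with 18 to 3211 in a window that reached 0.6, and Actg1, gamma-actin, with 5 to 825 on chromosome 11. Immune genes are therefore read below first on chromosome 16 and in windows that reached 0.6, and every other symbol names a locus whose own transcript may not be what was counted.

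Chromosome 16 also showed that the 10 libraries were of more than 1 kind. Counts per kb at 46 genes that naïve C57BL/6J ILC2s use (at least 100 CPM) were divided by those at 294 genes they do not use (under 0.5 CPM). The ratio was 7.45 in vehicle mouse 1, 80.9 in vehicle mouse 5, 16.3 in AR420626 mouse 4 and 40.6 in AR420626 mouse 5. In the other 6 libraries it was 1.14 to 1.91, which means that used and unused genes held nearly the same density of counts. A level in these 6 libraries (vehicle mice 2, 3 and 4, AR420626 mice 1, 2 and 3) therefore hardly tells a used gene from an unused one, and what else they hold was not tested. Every day 2 fold change and every difference between the days below rests in part on them, those of Egfr, Cd200r3 and Tigit included. At day 6 it was 39.6 to 111. Only mouse 5 had a high ratio in both of its day 2 libraries, and the ratio had no common direction by treatment (lower with AR420626 in 3 of 5 pairs; exact permutation test, p = 1). Olfactory and vomeronasal receptor genes, which lymphocytes are not known to use, took 2.69% to 2.93% of nuclear counts in the 6 flat libraries and 1.00% to 2.45% in the other 4.

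**Figure D2:**
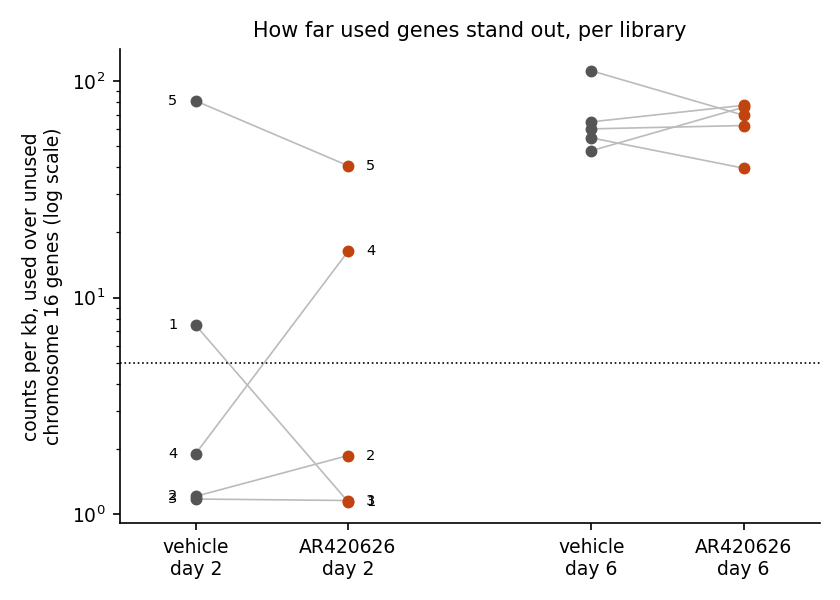
Ratio of counts per kb at chromosome 16 genes that naïve C57BL/6J ILC2s use to those they do not (log axis), one point per library, with lines joining the cells of one mouse and a dotted line at 5. At day 2, 6 libraries lie between 1.14 and 1.91 and 4 between 7.45 and 80.9, and all 10 day 6 libraries lie between 39.6 and 111.

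Across all genes, no transcript passed the test at day 2. Of 20865 genes tested with mouse as a block, edgeR called 0 higher and 0 lower at an adjusted p of 0.05, which is 0% called, and the smallest adjusted p was 1.00. At an unadjusted p under 0.05 there were 59 higher and 344 lower. The median log2 fold change of all genes tested was -0.22. The lean toward lower depended on the setting. At that p, the fit on 3310 genes that held 10 or more counts in each library gave 75 higher and 45 lower (median 0.05). Every other day 2 setting kept more lower than higher. In nuclear CPM, 50 genes had all AR420626 libraries above and 22 all below. The fit's scaling factors for library size (TMM) ran from 0.11 in vehicle mouse 5 to 1.73 in AR420626 mouse 1. Their part in the lean was not tested. DESeq2 called 0 higher and 31 lower (0.153% of 20263 genes with an adjusted p), limma voom with quality weights 0 and 23 (0.11%), and edgeR without a filter on low counts 1 and 14 (0.0276%). These settings named 50 genes in all, of which 7 were called by both DESeq2 and limma voom and 1, mt-Rnr1, lies on chromosome 16 or the mitochondrial genome. At day 6 the same fit called 311 higher and 767 lower of 9421 genes (11.4%).

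**Figure D3:**
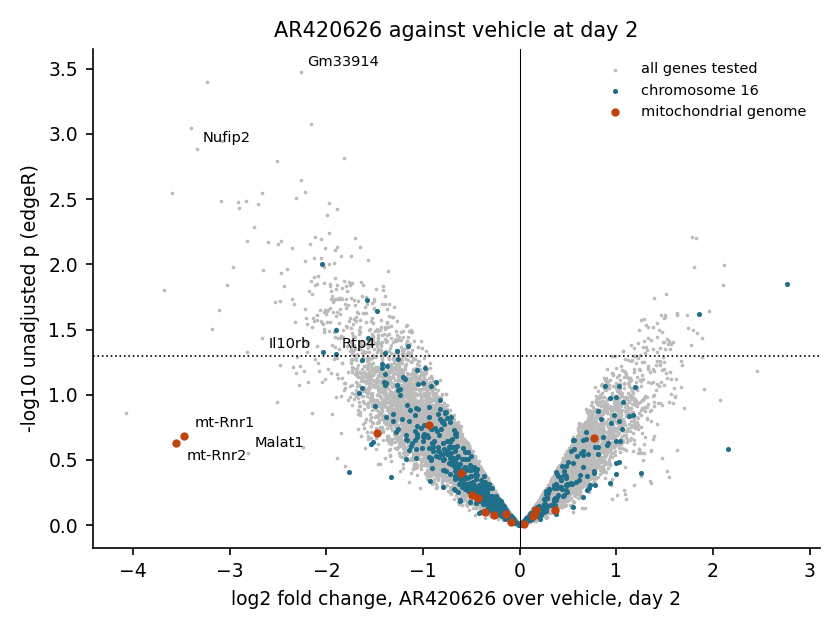
Log2 fold change of AR420626 over vehicle at day 2 against -log10 of the unadjusted edgeR p, for 20865 genes, with chromosome 16 and the mitochondrial genome in colour and a dotted line at the 0.05 level. No point passed after adjustment, and mt-Rnr1 and mt-Rnr2 lie at -3.47 and -3.56, under the dotted line.

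Malat1 and Neat1, abundant long noncoding RNAs that stay in the nucleus, were singled out after their values had been seen, since they lie in a window of chromosome 19 that reached 0.6 (rho 0.658, 167 genes) and Malat1 held many counts. Malat1 (chr19:5795690-5802672, minus strand) was at 9069, 496, 212, 1877 and 151615 nuclear CPM in vehicle mice 1 to 5. With AR420626 it was at 78.8, 209, 166, 1122 and 4788, which was lower in 5 of 5 pairs (exact permutation test on log2(CPM + 1), p = 0.0625). In TMM-normalized CPM, another scale, 5.45% of all genes tested were lower in every pair. The groups overlapped, because the vehicle libraries of mice 2 and 3 were low, and vehicle mouse 5 stood far above the rest. The fitted log2 fold change was -2.81 (standard error 2.49) and did not pass.

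Neat1 (chr19:5824708-5845478), which builds nuclear paraspeckles, was at 128 to 4093 nuclear CPM in vehicle and 102 to 397 with AR420626, lower in 4 of 5 pairs and higher in mouse 4 (lower in 3 of 5 in CPM over all genes). Its log2 fold change was -1.44 (standard error 1.46). At day 6, where every library was rich in both, Malat1 was at 20382 to 42528 in vehicle and 8086 to 15044 with AR420626 without overlap, as were 6.6% of genes tested at that day (log2 fold change -1.23, adjusted p = 0.00704 from edgeR), and Neat1 fell by 0.79 on the log2 scale (adjusted p = 0.0305 from edgeR). The difference between days was not called for either (adjusted p = 0.994 from edgeR for both). Gm37376, a locus annotated on the plus strand within the Malat1 gene, went the same way (4.93 to 2771 nuclear CPM with AR420626, 120 to 131674 in vehicle, DESeq2 adjusted p = 0.0196). The strand setting is not given, and whether its reads come from Malat1 was not tested.

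**Figure D4:**
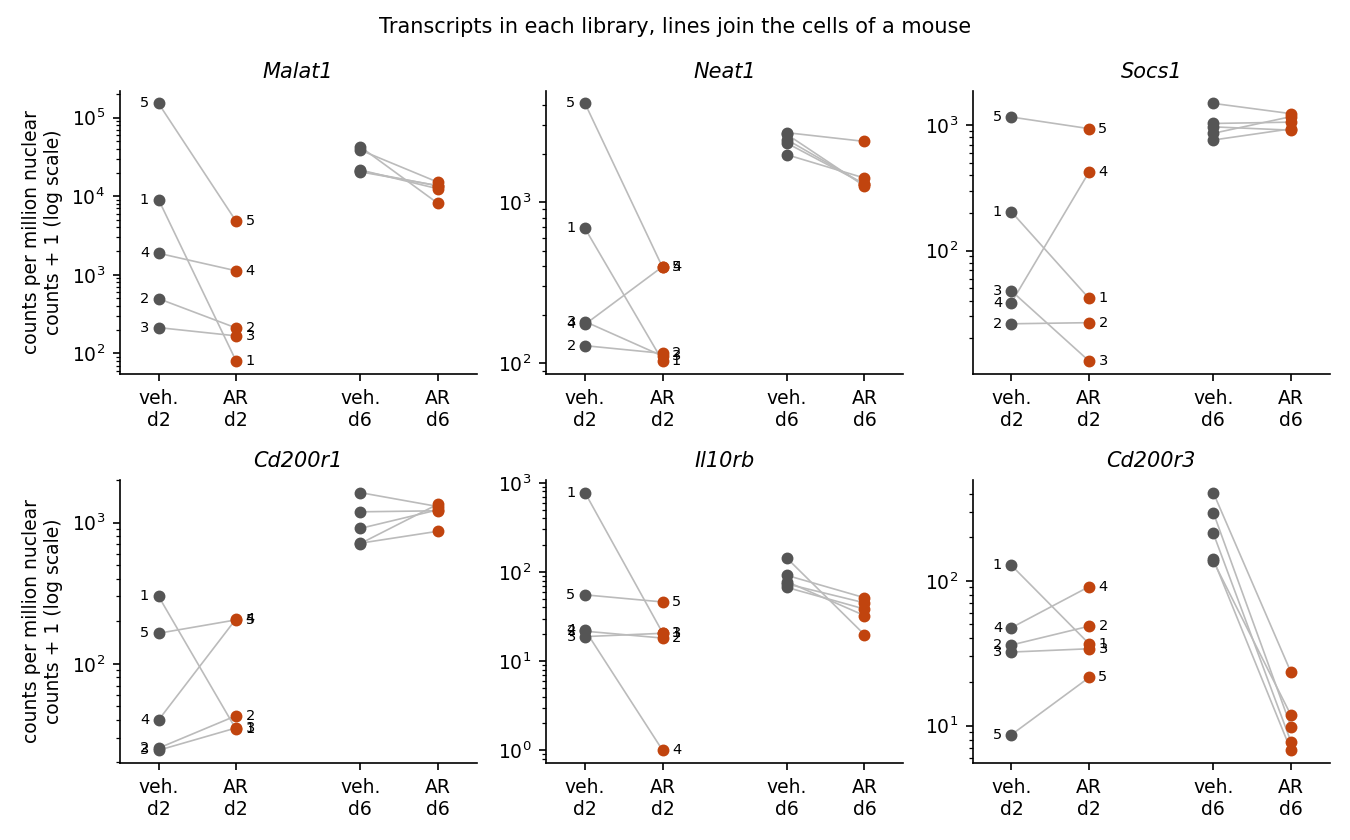
Nuclear CPM plus 1 (log axis) for 6 genes of chromosomes 16 and 19 in each library, vehicle in grey and AR420626 in orange, with lines joining the cells of one mouse. Malat1 was lower with AR420626 in 5 of 5 pairs at day 2, whereas the groups overlapped at day 2 for all 6 genes.

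Of chromosome 16, 646 genes were tested at day 2. None passed. At an unadjusted p under 0.05, 2 were higher and 10 lower, beside 59 and 344 of all 20865 genes tested. The median log2 fold change was -0.28, beside -0.22 over all genes tested. In the 28 windows elsewhere that reached 0.6, 782 genes were tested, of which 0 were higher and 9 lower at that level, with a median of -0.32. Fitted on chromosome 16 and the mitochondrial genome alone, 622 genes gave 0 calls, with 4 higher and 8 lower at an unadjusted p under 0.05.

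Cytokine signalling genes of chromosome 16 gave no call in either direction. Socs1, an inhibitor of JAK-STAT signalling that cytokines induce, was at 203, 25.1, 46.8, 37.6 and 1164 nuclear CPM in vehicle and at 40.6, 25.7, 12.2, 424 and 940 with AR420626. It was high in the 4 libraries with a high chromosome 16 ratio, whichever the treatment, and low in the other 6. Socs1 (187 CPM in naïve C57BL/6J) is itself among the 46 used genes that set this ratio, so that match is partly built in. Nfkbiz, a nuclear cofactor of NF-kB, was at 22.4 to 241 and 31.7 to 184. Il1rap, the shared chain of the IL-33 receptor, was at 12.7 to 83.5 and 36.1 to 113 (log2 fold change -0.09, standard error 0.43).

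Il10rb, the shared chain of the IL-10 receptor, was at 774, 20.7, 17.8, 21.3 and 54.4 nuclear CPM in vehicle and at 19.7, 17.1, 19.5, 0 and 45.0 with AR420626. Vehicle mouse 1 alone was high, and the day 2 log2 fold change of -2.04 (standard error 0.93) did not pass. At day 6 Il10rb was lower with AR420626 without overlap, as were 6.6% of genes tested at that day. It was at 66.1 to 142 in vehicle and 18.8 to 50.4 with AR420626 (log2 fold change -1.37, adjusted p = 0.00247 from edgeR). The difference between the days was 0.35 and was not called.

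Surface receptors of chromosome 16 called at day 6 gave no call at day 2. Cd200r3, a member of the CD200 receptor family, was at 127, 35.0, 31.2, 46.4 and 7.64 nuclear CPM in vehicle and 35.7, 47.6, 32.9, 90.2 and 20.5 with AR420626. The groups overlapped widely (log2 fold change -0.18, standard error 0.53), and AR420626 was higher in 4 of 5 pairs. At day 6 it was at 136 to 406 in vehicle and 5.74 to 22.4 with AR420626, a log2 fold change of -4.57 (adjusted p = 3.39e-12 from edgeR). The difference between the days itself passed (-4.66, adjusted p = 0.0273 from edgeR). Its neighbour Cd200r1, the receptor for the inhibitory ligand CD200, was at 23.4 to 300.2 in vehicle and 33.2 to 207 with AR420626 at day 2 and was not called at day 6 (log2 fold change 0.17).

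Tigit, an inhibitory receptor, had 2 to 16 counts in the vehicle libraries and 2 to 9 with AR420626 at day 2, too few to be tested. At day 6 it was at 4.70 to 15.2 nuclear CPM in vehicle and 160 to 378 with AR420626 (log2 fold change 4.45, adjusted p = 7.76e-11 from edgeR). The difference between days, 4.02, did not pass (adjusted p = 0.105 from edgeR). Rtp4, an interferon-induced chaperone of receptors, had 76, 22, 18, 22 and 5 counts in vehicle and 12, 14, 0, 0 and 11 with AR420626, a log2 fold change of -1.90 (standard error 0.87) that did not pass. It was lower at day 6 by a log2 fold change of -4.27 (adjusted p = 7.76e-11 from edgeR). Gap43, a membrane protein of growing axons that was chosen after its values had been seen, had 10 to 299 counts in vehicle, with the highest in mouse 3, and 7 to 12 with AR420626, and was lower with AR420626 by a log2 fold change of -5.08 at day 6 (adjusted p = 1.61e-11 from edgeR). Neither gene's difference between the days was called.

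Of the 106 chromosome 16 genes called at day 6, 22 were higher and 84 lower with AR420626. Of these, 19 and 77 were tested at day 2 and 3 had an unadjusted p under 0.05. The 19 had a median log2 fold change of 1.57 at day 6 and -0.22 at day 2, and the 77 had -1.03 and -0.42, beside a median of all genes of -0.22 at day 2. Over all chromosomes 1078 genes were called at day 6, of which 971 were tested at day 2 and 25 had an unadjusted p under 0.05. Of all 20865 genes tested at day 2, 59 were higher and 344 lower at that level.

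**Figure D5:**
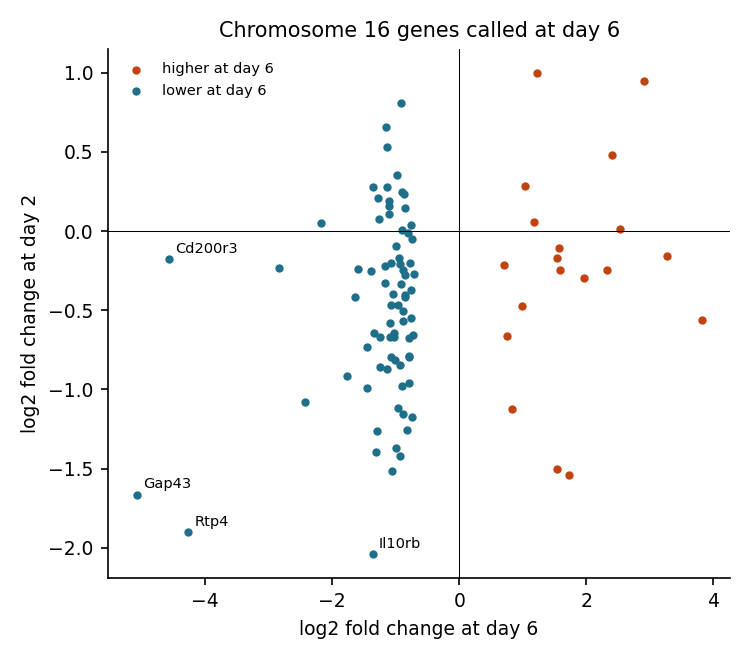
Log2 fold change of AR420626 over vehicle at day 2 against that at day 6 for the chromosome 16 genes called at day 6 and tested at day 2 (19 higher and 77 lower at day 6). Genes higher at day 6 have a day 2 median of -0.22 and genes lower at day 6 one of -0.42, and none was called at day 2.

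Mouse 5 was the pair in which both day 2 libraries had a high chromosome 16 ratio, and it is described without a test. Of 300 chromosome 16 genes with at least 100 counts in the pair, 97 were over 1 log2 unit higher with AR420626 and 85 over 1 log2 unit lower, with a median of 0.06. The same counts over all genes of the pair were not made, so these are not shown to be particular to chromosome 16. The examples were chosen after their values were seen. Atp5j, a subunit of the mitochondrial ATP synthase, had 297 counts in vehicle and 2313 with AR420626 (log2 ratio 4.22), Cox17, a copper chaperone for cytochrome oxidase, had 193 and 1054 (3.70), Ndufb4, a subunit of complex I, had 24 and 422 (5.27), and Ranbp1, a cofactor of nuclear transport, had 422 and 2622 (3.90). Paxbp1 had 16358 counts in vehicle and 309 with AR420626 (-4.45), and Son, an RNA-splicing factor of nuclear speckles, had 14603 and 928 (-2.70). Thus this pair differed by many fold at named genes in both directions, in libraries of 5320028 and 1021258 counts. At day 6 the same mouse had log2 ratios of 0.72 for Atp5j, -0.37 for Cox17, -0.23 for Ndufb4, -0.60 for Paxbp1 and -0.05 for Son. That of Ranbp1 is not given here.

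Among the other mice Atp5j did not keep that direction. It was at 806, 44.9, 35.6, 159 and 126 nuclear CPM in vehicle and 11.1, 29.5, 54.9, 1772 and 2368 with AR420626, higher with AR420626 in mice 3, 4 and 5 and lower in mice 1 and 2. Mcm4, a subunit of the replication helicase, was at 47.9 to 222 in vehicle and 28.0 to 442 with AR420626, again highest in AR420626 mice 4 and 5. Neither passed.

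The loci with the lowest p and the same direction in all 5 pairs on the TMM scale did not pass in edgeR, and those named here lie outside the windows that reached 0.6, apart from Tm7sf2. In all, 1137 genes (5.45%) were lower and 386 (1.85%) higher in all 5 pairs. Gm33914, a long noncoding RNA locus of chromosome 9, was at 156, 120, 49.0, 48.9 and 20.4 nuclear CPM in vehicle and 37.0, 24.7, 12.2, 18.0 and 8.19 with AR420626. Its change of -2.26 on the log2 scale (standard error 0.46) was called by DESeq2 (adjusted p = 0.0101) and limma voom (adjusted p = 0.00733). The locus of Nufip2, an RNA-binding protein of stress granules, was at 164, 81.7, 379, 220 and 18.7 in vehicle and 48.0, 35.2, 34.1, 0 and 1.02 with AR420626 (log2 fold change -3.34, standard error 0.81) and was called by DESeq2, limma voom and edgeR without a filter. The loci of Plp2 (-2.84), Nxf1, the main mRNA export factor (-2.0), Mpc2, of the mitochondrial pyruvate carrier (-1.97), and Kank3 (-2.06) were also lower, and each was called by DESeq2 or limma voom or both. In nuclear CPM, Nxf1 and Mpc2 were lower in 4 of 5 pairs, with mouse 5 higher (36.1 to 48.1 for Nxf1, 29.7 to 32.8 for Mpc2), and in CPM over all genes Mpc2 was lower in 3 of 5.

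Among the loci called by DESeq2 alone were Rbm26 and Smarcc1, chosen after their values were seen. Rbm26, of nuclear RNA decay, had 1462, 2512, 622, 961 and 1323 counts in vehicle and 679, 328, 352, 6 and 21 with AR420626 (DESeq2 adjusted p = 0.0197). Smarcc1, of the BAF chromatin remodeller, had 1984, 1613, 561, 650 and 870 and then 759, 152, 263, 13 and 8 (DESeq2 adjusted p = 0.0196). At day 6 both loci were at 6.63 to 37.6 nuclear CPM in every vehicle library, below their 369.5 to 2256 in vehicle at day 2, and neither was called.

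Tm7sf2 and Ndrg1 lie in windows that reached 0.6. The window of Ndrg1 rests on only 16 genes (rho 0.630), and chromosome 15 as a whole was at 0.200, so its symbol is less sure. Tm7sf2, a reductase of cholesterol synthesis on chromosome 19, was at 48.0 to 155 nuclear CPM in vehicle and 18.0 to 66.5 with AR420626, lower in 5 of 5 pairs with overlap, but in 3 of 5 in CPM over all genes (log2 fold change -1.70, standard error 0.52). It was not called at day 6 (0.24). Ndrg1, which hypoxia induces, was at 65.6 to 84.1 in vehicle and 9.02 to 64.0 with AR420626 without overlap at day 2 (log2 fold change -1.23, standard error 0.53), where 0.105% of genes had all AR420626 libraries below. In CPM over all genes it was lower in 3 of 5 pairs. At day 6 it was higher with AR420626 (log2 fold change 1.39, adjusted p = 9.67e-05 from edgeR), and the difference between the days, 2.12, was not called.

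Loci at the other end of the scale, with the lowest p among those higher in all 5 pairs, did not pass either. Gm10138 was at 5.95 to 73.6 nuclear CPM in vehicle and 90.2 to 151 with AR420626, and Cbfa2t3, a transcriptional corepressor, at 14.9 to 65.4 and 71.7 to 112, both without overlap, as in 0.24% of genes tested. Ptpn14, a phosphatase, was also without overlap (8.49 to 62.4 and 72.7 to 153). Their log2 fold changes were 1.18, 0.75 and 0.90. The Eif3a locus was higher in 5 of 5 pairs with overlap (0.90). No setting tried called any of these 4, and vehicle mouse 5 was the lowest library for each.

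How far AR420626 shifted a gene at day 6 against day 2 was tested for 23141 genes, and 12 were called (0.0519%), 9 with a higher effect at day 6 (0.0389%) and 3 with a lower one (0.013%). Of these, Cd200r3 alone lies on chromosome 16. Gm37844 and Gm7676 lie in a window of chromosome 8 that reached 0.6 (rho 0.889). Gm37844 was at 3.40 to 49.0 nuclear CPM in vehicle and 0 to 34.1 with AR420626 at day 2, and at 1.28 to 14.6 and 58.3 to 217 at day 6 (difference 4.44, adjusted p = 0.0178 from edgeR). Gm7676, a processed pseudogene, had 0 to 6 counts in vehicle and 0 to 4 with AR420626 at day 2 and 39.3 to 85.9 nuclear CPM with AR420626 at day 6 (difference 6.56, adjusted p = 0.0121 from edgeR). The 2010109I03Rik locus was at 4.25 to 24.3 in vehicle and 6.14 to 23.2 with AR420626 at day 2 and had the smallest p, with day 6 levels of 137 to 398 in vehicle and 2.24 to 6.70 with AR420626 (difference -5.85, adjusted p = 0.00185 from edgeR).

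The genes that the study's question turns on, all outside chromosome 16, gave no call at day 2. The Egfr locus was at 85.2, 96.1, 114, 92.9 and 10.6 nuclear CPM in vehicle and at 112, 110, 97.6, 135 and 101 with AR420626. It was higher in 4 of 5 pairs (log2 fold change 0.41, standard error 0.49) and vehicle mouse 5 alone was low. At day 6 the vehicle libraries had 2.65 to 18.6 and the AR420626 libraries 395 to 877, and the difference between the days passed (5.03, adjusted p = 0.0273 from edgeR). On chromosome 11, which holds Egfr, the correlation with naïve C57BL/6J was 0.200.

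Ffar3 had 6, 25, 18, 12 and 4 counts in vehicle and 11, 10, 6, 0 and 4 with AR420626, too few to be tested. The loci of the type 2 cytokines Il5 (5 to 18 counts in vehicle, 0 to 17 with AR420626) and Il13 (2 to 22 and 0 to 17), of the EGF receptor ligand Areg (2 to 12 and 0 to 14) and of the regulatory cytokine Il10 (8 to 19 and 0 to 10) held few counts as well. Il10 was lower in 5 of 5 pairs in nuclear CPM but in 4 of 5 in CPM over all genes. Il1rl1, the IL-33 receptor ST2, was at 10.2 to 72.4 and 31.7 to 85.6 nuclear CPM (log2 fold change 0.24, standard error 0.43). It was higher with AR420626 in 3 of 5 pairs on that scale and in 5 of 5 in CPM over all genes. Il2ra, the IL-2 receptor alpha chain, was at 20.8 to 65.3 and 0 to 43.1. Gata3, the ILC2 lineage factor, was at 8.92 to 20.1 in the vehicle libraries of mice 1 to 4, 164 in that of mouse 5, and 9.85 to 36.9 with AR420626. Mki67, a marker of dividing cells, was at 14.9 to 90.2 and 40.6 to 92.4, and Bcl2, an inhibitor of apoptosis, at 3.40 to 45.6 and 18.0 to 57.3. None of these passed, and each of them that was tested had an adjusted p of 1.00 in edgeR.

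Of the 50 gene lists for pathways, cell functions and cell types, none had a member called, against 0% of all genes. In the 37 lists with at least 10 tested members, medians ran from -0.62 (MHC class I and II presentation, 20 tested) to -0.01 (anti-apoptotic genes, 16 tested), around the -0.22 of all genes. Among receptors for fatty acids and metabolites, 10 of 14 members were tested, with 0 higher and 1 lower at an unadjusted p under 0.05. The lactate receptor locus Hcar1, which was not that member, was at 17.0 to 57.5 nuclear CPM in vehicle and 0 to 34.5 with AR420626 (log2 fold change -1.57, standard error 0.87). In the EGF receptor family and its ligands 17 of 19 were tested, with 0 in each direction at that level. Of 16 tested anti-apoptotic genes, 1 was lower at that level, Mcl1 (log2 fold change -1.51, standard error 0.57), which limma voom called (adjusted p = 0.0428). The Mcl1 locus was lower in 4 of 5 pairs but higher in mouse 5 (7.64 to 41.0 nuclear CPM), and its window did not reach 0.6 (rho 0.531). The olfactory and vomeronasal receptor loci Olfr96 and Vmn1r227 were called by limma voom as well. Birc2, of the same list and in a window that reached 0.6 on chromosome 9, was at 24.5 to 262 in vehicle and 25.9 to 39.0 with AR420626, and was called lower at day 6 (log2 fold change -1.06, adjusted p = 0.00485 from edgeR). Of 25 glycolysis genes tested, none passed and 2 were lower at an unadjusted p under 0.05, beside 344 of all 20865 genes, 1 of them Pfkfb3, which makes the activator of phosphofructokinase (-1.59, standard error 0.72).

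Lymphocyte identity could be checked only in part. Of 25 ILC2 lineage and surface genes 19 were tested, with none called, and their summed level was 343 to 808 nuclear CPM in vehicle and 304 to 782 with AR420626. The 10 lists of other cell types hold 86 genes, of which 56 were tested and none was called. Their summed levels overlapped between the treatments in each list, for example 193 to 380 in vehicle and 158 to 383 with AR420626 for T cells, and 184 to 237 and 117 to 255 for macrophages and neutrophils. Since 1 of the 86 genes lies on chromosome 16, these sums mostly count other loci, and what other cells contributed was not tested.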

How the data were processed

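RNA of cultured lung ILC2s was sequenced after SMART-Seq v4 library preparation. Per the paper's methods, the authors trimmed reads with fastp, checked them with FastQC, aligned them with STAR (CC030 reads to an mm9-based pseudogenome, moved to mm10 coordinates by lapels) and counted them with HTSeq. Whole-number counts for each gene were deposited, without normalization. The annotation and the strand setting are not given in the sources used here. Of 55401 identifiers, 55141 had a symbol and position in GENCODE vM21 (GRCm38). HTSeq's summary rows served for read shares only.

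Genes passing filterByExpr (minimum count 10, minimum total 15) were normalized by TMM and tested with edgeR 4.0.16 in R 4.3.3 by the quasi-likelihood F-test with mouse as a block, adjusted by Benjamini-Hochberg at 0.05. Day 2, day 6 and the difference between days (mouse, day, treatment and day by treatment) were fitted separately, with common dispersions of 0.343, 0.135 and 0.391. Single values were compared by exact two-sided permutation of the signs of 5 paired differences of log2(CPM + 1). Cells of 1 mouse share a number by design. The correlation of the deviations of the paired libraries was -0.06, 0.30, 0.31, -0.13 and 0.35 for mice 1 to 5. The highest with an AR420626 library of another mouse was 0.06, 0.32, 0.31, 0.26 and 0.17. That was above the own pair in mice 1, 2 and 4, so the values hardly show the pairing. Libraries of a group differed by at least 3.39 in chi-square per degree of freedom, and none was a duplicate. The code of the fits was run on simulated counts and had to recover known changes only at a dispersion of 0.05, below that of day 2. This checks the code and does not show the power at day 2. Alternatives were DESeq2 1.42.0, limma 3.58.1 voom with quality weights, other size factors, filters and feature sets, and libraries left out. Python 3.11.15 with pandas 2.3.3, numpy 2.4.6, scipy 1.17.1 and matplotlib 3.10.9 was used elsewhere.

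The gene lists and the comparison were chosen with earlier results of these data known. Named were 11 genes of the study's question; up to 10 loci per direction averaging 50 counts or more with 1 direction in all 5 pairs, by p where none was called; up to 4 per list; and the 5 of smallest p between the days. Only some of these are described, and 1 locus is not reported here. The thresholds of the position check were set after the data had been seen. Depth in genes was 227445 to 5320028 counts per library. A gene with 0 counts in a library could have had up to 3 there, which covers counting error only.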

Additional observations from a re-analysis of the deposited data

Results flagged for a closer look

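A library was set apart where its gap to the nearest of the 5 in its group exceeded 0.71 of the group's range (Dixon's test at the 95% level). Of 122 groups of 5 examined, 27 held such a library. The rate of about 5% by chance holds for normally spread values, and some of these genes were chosen after their values were seen. The 27 therefore cannot be set against that rate. Vehicle mouse 5 accounted for 13, vehicle mouse 1 for 6, AR420626 mouse 5 for 5 and AR420626 mouse 4 for 1. The values of 1 library share its depth and makeup, so they are not independent of each other.

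Vehicle mouse 5 stood apart in the share of reads assigned to genes (11.1%), in genes with a count (32347) and in the ratio of used to unused chromosome 16 genes (80.9). In CPM over nuclear counts it was high for Malat1 (151615), Gm37376 (131674), Neat1 (4093), Socs1 (1164), Birc2 (262), Kank3 (242) and Gata3 (164). It was low for Mki67 (14.9), Egfr (10.6) and Bcl2 (3.40). Vehicle mouse 1 was high for mitochondrial mRNAs together (20418), for mt-Cytb (6887), mt-Nd1 (4446) and mt-Co1 (2551), and for Atp5j (806) and Il10rb (774). AR420626 mouse 5 was high for Malat1 (4788), Gm37376 (2771), mt-Co1 (1685), mt-Co3 (323) and Kank3 (93.2). Gap43 was high in vehicle mouse 3 (333) and AR420626 mouse 4 (36.1). Gm7676 had counts in AR420626 mouse 2 alone of its group (3.81).

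For 7 of the genes named, the AR420626 effect differed between the days by the interaction test of edgeR, as day 6 minus day 2 on the log2 scale. These were 2010109I03Rik (-5.85, adjusted p = 0.00185), Gm7676 (6.56, adjusted p = 0.0121), Gm44950 (6.83, adjusted p = 0.0129), Gm37844 (4.44, adjusted p = 0.0178), Egfr (5.03), Cd200r3 (-4.66) and Nufip2 (4.45), the last 3 each with an adjusted p of 0.0273. Gm44950 had 0 to 4 counts in vehicle and 2 to 22 with AR420626 at day 6, too few to be tested at that day alone. Without mouse 1 none of the interaction calls was made.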

How the results depend on the processing

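At day 2 edgeR called 0 genes with the mouse as replicate block and 0 without it. It also called 0 with DESeq2's size factors, with at least 10 counts in every library, on protein-coding genes, on chromosome 16 and mitochondrial genes, without any 1 mouse and without mice 4 and 5. Calls came from DESeq2 (31 lower), limma voom with quality weights (23 lower, 3 of them list members) and edgeR with no filter (1 higher, 14 lower). The median log2 fold change of all genes ran from -0.31 to 0.05 over these settings. For the difference between days, 9 higher and 3 lower became 1 and 1 with no replicate block, 12 and 6 with a block within day, 159 and 101 in DESeq2, and 3 and 1 on chromosome 16 and mitochondrial genes. Leaving out 1 mouse gave 0 to 19 higher and 0 to 14 lower: 0 and 0 without mouse 1, 2 and 2 without mouse 2, 1 and 1 without mouse 3, 0 and 1 without mouse 4, and 19 and 14 without mouse 5. The cause was not tested. The ribosomal RNA share differed by -35.7 to -23.6 percentage points without 1 mouse and by -19.6 without mice 4 and 5.

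Of 623 values for 50 named genes, 570 kept their direction and their side of the threshold, 20 were called only under an alternative (13 genes) and 33 changed sign (13 genes), none of the latter called. Under voom these were mt-Nd1 (-0.88), Il1rap (0.019), Atp5j (-1.60), Il13 (0.0056) and 2010109I03Rik (0.0066). Without mice 4 and 5 they were mt-Nd1 (-1.34), Atp5j (-1.73), Egfr (-0.0205), Il13 (0.087) and 2010109I03Rik (0.0496). With no replicate block they were mt-Co1 (0.0091) and Il1rap (0.005), with no filter mt-Nd1 (-0.028), with 10 counts in every library Cd200r1 (0.040), and on chromosome 16 and mitochondrial genes Cd200r1 (0.021) and Il1rap (0.11). Leaving out 1 mouse moved mt-Nd1 from -0.52 to 0.77, mt-Co1 from -0.93 to 0.72, mt-Cytb from -0.81 to 0.32, Cd200r1 from -0.88 to 0.55, Il1rap from -0.22 to 0.045, Mcm4 from -1.06 to 0.0504, Atp5j from -0.39 to 1.51, Cd200r3 from -0.50 to 0.27, Gata3 from -0.99 to 0.0189 and Bcl2 from -0.13 to 0.29.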
